A study of Homo sapiens with 72 samples.

Results

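The 37 genes described here are genes of the cellular response to low oxygen and of glycolysis, followed across 3 human cervicovaginal epithelial cell lines. They were taken by name, not by a cutoff on their values, out of 62266 genes counted, and all 37 were found. Earlier results of these data were known when they were chosen. They comprise 4 genes of oxygen sensing (HIF1A, EPAS1, EGLN1 and EGLN3), 11 further targets of hypoxia-inducible factors (ADM, ANKRD37, KDM3A, CA9, VEGFA, BNIP3, BNIP3L, NDRG1, ANGPTL4, P4HA1 and P4HA2) and 2 glucose transporters (SLC2A1 and SLC2A3). The remaining genes are 11 of upper glycolysis (HK1, HK2, GPI, PFKL, PFKM, PFKP, PFKFB3, PFKFB4, ALDOA, ALDOC and TPI1), 6 of lower glycolysis (GAPDH, PGK1, PGAM1, ENO1, ENO2 and PKM) and 3 that handle pyruvate and lactate (PDK1, LDHA and SLC16A3). The study asked how polyamines alter the response of such cells to Gardnerella vaginalis (GV), an anaerobe common in bacterial vaginosis. Ectocervical (Ecto, Ect/E6E7), endocervical (Endo, End1/E6E7) and vaginal (VK2, VK2/E6E7) cells, each immortalized with papillomavirus E6 and E7, were left untreated (NT) or received 1 polyamine, namely SPM (spermine) at 400 µM, SPD (spermidine) at 400 µM or PUT (putrescine) at 4 mM. After 4 h of this pretreatment, live GV at 10000000 colony forming units per well was added for 24 h (GV), or no bacteria were added (noGV). Each line therefore had 8 groups of 3 libraries, 72 libraries in all, made from total RNA. Each line is 1 immortalized line in culture, so a difference between lines is not a difference between tissues of several donors.

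Hypoxia-inducible factors pair an oxygen-regulated alpha subunit, encoded by HIF1A or EPAS1, with a constant partner. In oxygen, the prolyl hydroxylases EGLN1 and EGLN3 mark the alpha subunit for degradation. In low oxygen it persists and raises genes for glucose uptake, glycolysis, pH control and vessel growth, EGLN3 among them. The regulation of HIF1A lies largely in protein stability, which RNA counts do not measure. In the same way, glycolytic flux and oxygen were not measured here.

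The libraries held 20152143 to 42767996 counts, and the 37 genes took 1.47% to 2.18% of each library. All 37 passed the filter on low counts in all 3 lines, out of 19459 tested for Ecto, 18741 for Endo and 18474 for VK2. Levels are given as CPM, counts relative to a library size scaled by TMM (the trimmed mean of M values), for replicates 1, 2 and 3 in that order. Changes are log2 fold changes ± standard error of the fit, from 3 libraries a group, and "rose" or "fell" means an adjusted p under 0.05 by edgeR's quasi-likelihood test, corrected over all genes tested. Nothing states that replicates were separate cultures, so p-values measure the spread between libraries, which may be technical. Replicate 3 of unexposed SPD in Ecto stood apart from its group, with HIF1A at 1329, 1272 and 948 CPM. With or without that library, no member passed the test in that group, while 3 passed without replicate 1 and 2 without replicate 2. Summed epithelial markers (9 genes) stood at 7260 to 35722 CPM over all libraries. The 6 fibroblast markers summed to 14.3 to 68.9 CPM, most of it COL1A1, which encodes a collagen chain. In bulk RNA, fewer cells of a type and less RNA per cell cannot be told apart. Fibroblast markers moved with the treatments in each line. In NT+noGV, NT+GV and PUT+GV, in that order, the fibroblast sum was 15.4 to 16.9, 26.3 to 31.1 and 52.1 to 56.7 CPM in Ecto, 28.8 to 33.2, 38.7 to 41.8 and 62.8 to 68.9 CPM in Endo and 24.4 to 26.2, 34.5 to 37.998 and 60.7 to 62.1 CPM in VK2. With SPM and GV it was 31.01 to 36.7, 40.4 to 47.1 and 40.4 to 41.6 CPM. COL1A2, COL3A1, LUM and PDGFRA had at most 18 counts in any library. DCN had 14 to 195 counts in VK2 (0.422 to 6.05 CPM) and at most 16 in Ecto and 6 in Endo. The epithelial sum was 11019 to 11459, 8146 to 8598 and 8478 to 8843 CPM in Ecto, 19229 to 19816, 15481 to 16572 and 14871 to 15180.2 CPM in Endo and 28295 to 29009.5, 27982 to 30950.3 and 28076 to 30332 CPM in VK2. With SPM and GV it was 7594 to 8009, 14888 to 15166 and 24292 to 24988 CPM. The 6 leukocyte markers summed to 5.97 to 7.10, 5.88 to 6.80 and 9.43 to 11.995 CPM in Ecto, 0.685 to 0.982, 1.27 to 1.98 and 3.26 to 3.74 CPM in Endo and 2.10 to 2.54, 2.12 to 3.08 and 5.81 to 6.57 CPM in VK2, with PTPRC, the pan-leukocyte marker, at 0 to 7 counts. The 4 endothelial markers summed to 0.366 to 4.27 CPM over all libraries. The part of these markers in the results was not tested.

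The hypoxia response element through which these factors act holds a core that reads ACGTG or GCGTG. The core was searched on both strands in the 250 bases before each annotated gene start in RefSeq (GRCh38.p14), and ACGTG also lies within the E-box CACGTG, which other factors bind. Promoters of 33 of the 37 genes were matched, and 28 of the 33 had at least 1 core in at least 1 promoter, a share of 84.8%, against 47.4% of 27305 genes in the same table. Counted by promoter, 37 of the 61 member promoters (60.7%) and 43.2% of 35116 promoters held a core. The E-box was in at least 1 promoter of 8 of the 33 members. It was in 6.35% of all promoters, a share by promoter that cannot be set against this count by gene. A match is a description of letters and not evidence of binding. The promoters of 6 genes on which the results turn follow: CA9 and ALDOC, high among the responses to GV; ADM and ANKRD37, high under SPM with GV; LDHA, raised by PUT without GV in all 3 lines; and EPAS1, lowered by PUT and by SPM with GV in all 3 lines. Each line runs 5′ to 3′ on the gene's strand and ends at the base before the start, with the cores in capitals. The LDHA sequence is the first of 2 promoters listed for that gene.
CA9 promoter, chr9:35673678-35673927, plus strand: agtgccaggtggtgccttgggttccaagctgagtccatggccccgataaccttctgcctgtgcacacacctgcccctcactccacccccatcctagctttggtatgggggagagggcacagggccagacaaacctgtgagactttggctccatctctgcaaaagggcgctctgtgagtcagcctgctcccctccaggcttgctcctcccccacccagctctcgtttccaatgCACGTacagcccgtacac
ALDOC promoter, chr17:28576896-28577145, minus strand: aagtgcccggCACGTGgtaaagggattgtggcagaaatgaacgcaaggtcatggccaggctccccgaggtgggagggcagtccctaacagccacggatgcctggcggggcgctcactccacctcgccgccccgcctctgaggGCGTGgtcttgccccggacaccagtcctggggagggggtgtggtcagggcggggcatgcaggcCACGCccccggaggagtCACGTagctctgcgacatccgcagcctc
ADM promoter, chr11:10304823-10305072, plus strand: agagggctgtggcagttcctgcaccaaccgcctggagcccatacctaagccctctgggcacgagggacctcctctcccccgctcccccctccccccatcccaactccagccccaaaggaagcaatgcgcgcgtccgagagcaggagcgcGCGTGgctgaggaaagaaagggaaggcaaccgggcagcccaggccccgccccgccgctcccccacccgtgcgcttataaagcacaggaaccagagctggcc
ANKRD37 promoter, chr4:185396591-185396840, plus strand: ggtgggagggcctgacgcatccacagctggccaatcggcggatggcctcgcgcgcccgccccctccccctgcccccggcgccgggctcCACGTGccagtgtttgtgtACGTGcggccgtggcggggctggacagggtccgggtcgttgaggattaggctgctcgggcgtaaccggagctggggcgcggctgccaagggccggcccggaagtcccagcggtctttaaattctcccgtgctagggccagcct
LDHA promoter, chr11:18394313-18394562, plus strand: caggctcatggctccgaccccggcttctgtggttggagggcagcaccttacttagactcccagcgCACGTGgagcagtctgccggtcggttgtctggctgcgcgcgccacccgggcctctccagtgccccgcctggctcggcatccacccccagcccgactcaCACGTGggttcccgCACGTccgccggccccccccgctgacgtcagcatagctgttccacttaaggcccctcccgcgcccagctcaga
EPAS1 promoter, chr2:46297157-46297406, plus strand: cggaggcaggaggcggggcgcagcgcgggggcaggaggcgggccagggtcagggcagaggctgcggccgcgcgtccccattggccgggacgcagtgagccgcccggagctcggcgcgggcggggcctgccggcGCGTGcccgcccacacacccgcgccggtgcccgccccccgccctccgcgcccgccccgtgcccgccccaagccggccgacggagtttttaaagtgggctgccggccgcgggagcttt
The CA9 window held a single core, 18 bases before the start, on the opposite strand. ADM and EPAS1 each had a single GCGTG, and ANKRD37, LDHA and ALDOC held several cores, with an E-box in each. The single promoter listed for EGLN3, the gene that rose most under SPM with GV in Endo and VK2, had no core in this window, which says only that these letters are absent there.

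In untreated, unexposed cells, levels were compared between genes as CPM per kb of the canonical transcript. GAPDH, which oxidizes glyceraldehyde 3-phosphate, led in every line, at 2470.4 ± 72.7 in Ecto, 3693 ± 91.97 in Endo and 2761 ± 67.7 in VK2 (mean ± SD, n = 3). ENO1, the common enolase, and PKM, the pyruvate kinase, came next, and in VK2 these neighbours overlapped, at 1212 ± 30.1 for PKM and 1186 ± 33.2 for ENO1. ALDOA, TPI1 and LDHA followed within the first 7 genes of each line. HIF1A RNA ranked 7th in Ecto, 9th in Endo and 10th in VK2, at 323, 209 and 184 CPM per kb, and exceeded EPAS1 in each line (59.2, 51.03 and 78.7). Among the 36 steps between neighbours in the order, 10 in Ecto, 4 in Endo and 10 in VK2 had libraries that overlapped. EGLN3, PDK1 and SLC2A3 were at the low end, although SLC2A3 was so only in Ecto and Endo. The place of PDK1 depends on division by a canonical transcript of 14072 bases, where the next longest, that of HK2, has 5626. Which transcripts the cells used was not examined, so PDK1 is not shown to be as scarce as EGLN3.

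**Figure D1:**
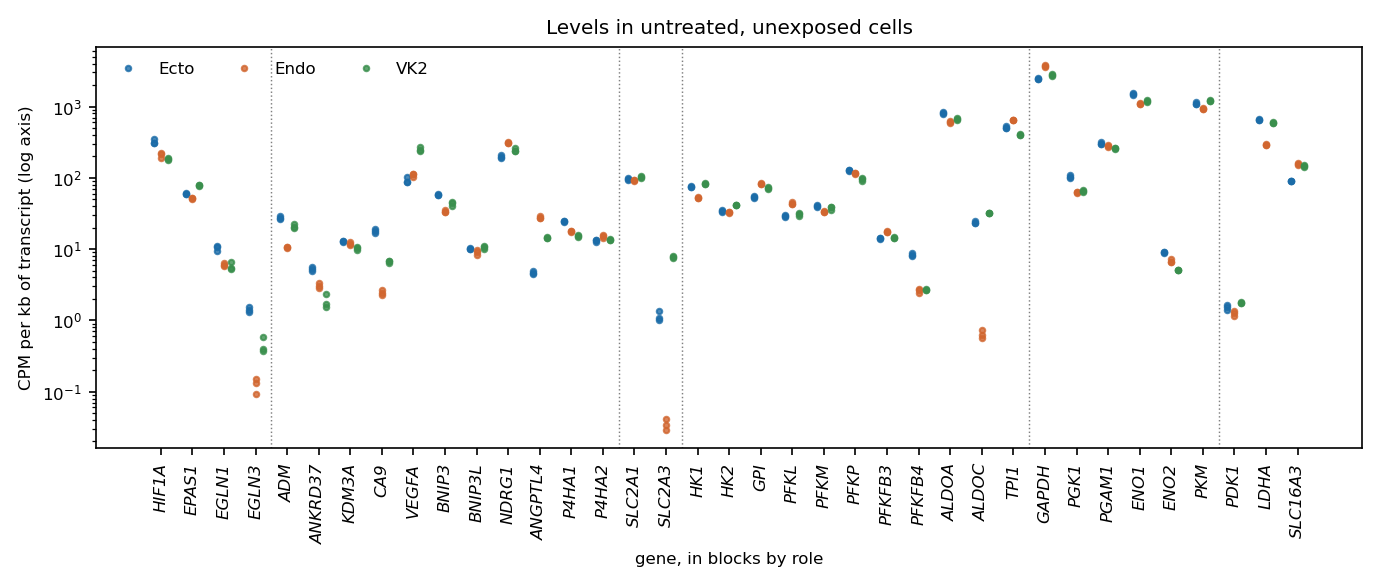
Level of each of the 37 genes in untreated, unexposed cells, as CPM per kb of transcript on a log axis, 1 point per library and 3 libraries per line. Genes run in blocks by role. GAPDH is the highest point in each line, and SLC2A3 and ALDOC in Endo lie far below the other 2 lines.

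The lines differed in most members before any treatment. Ecto and Endo differed in 30 of 37 genes (20 higher and 10 lower in Ecto), Ecto and VK2 in 34 (15 and 19) and Endo and VK2 in 31 (12 and 19), while 63.9%, 63.8% and 59.6% of all genes tested differed in those comparisons. By direction, the higher and lower shares of all genes were 31.9% and 32%, 31.8% and 32%, and 29.3% and 30.4%. The widest gaps were in SLC2A3 and ALDOC. SLC2A3, a high-affinity glucose transporter, was at 30.99, 29.2 and 29.1 CPM in VK2 and at 5.15, 4.08 and 3.88 CPM in Ecto. In Endo it was at 0.110, 0.131 and 0.158 CPM, a handful of counts per library and far below both other lines (Endo against VK2, -7.83 ± 0.18, adjusted p = 1.76e-46). ALDOC, an aldolase isoform, was at 1.17, 0.914 and 1.01 CPM in Endo and at 50.9, 50.7 and 51.9 CPM in VK2 (-5.71 ± 0.10, adjusted p = 1.92e-52), with no overlap. LDHA, the lactate dehydrogenase subunit that favours lactate, stood at 651, 651 and 661 CPM in Endo and at 1428, 1472 and 1474 CPM in Ecto (1.03 ± 0.04, adjusted p = 1.03e-35). VEGFA, the vessel growth factor, was highest in VK2, at 969, 856 and 887 CPM, against 372, 317 and 317 CPM in Ecto (-1.63 ± 0.10, adjusted p = 1.52e-20). CA9, a surface carbonic anhydrase that regulates pH, was highest in Ecto, with 27.7, 25.6 and 29.4 CPM in Ecto and 3.48, 3.72 and 4.15 CPM in Endo (2.74 ± 0.09, adjusted p = 1.48e-37). ANGPTL4, a secreted inhibitor of lipoprotein lipase, was lowest in Ecto and highest in Endo (-2.70 ± 0.15, adjusted p = 3.99e-22).

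GV alone raised most of the set in VK2 and Endo and gave a mixed picture in Ecto. In VK2, 31 members rose and 0 fell, where 13.9% of all genes rose and 12.5% fell. At an unadjusted p under 0.05 the number lower in VK2 was also 0, and DESeq2 called 0 lower. In Endo, 23 rose and 3 fell (25.7% and 28.7% of all genes), and in Ecto, 16 rose and 9 fell (20.9% and 23.7%). The median log2 change of the 37 genes was 0.32 in VK2, 0.21 in Endo and 0.10 in Ecto, and that of all genes tested was 0.00 in each line. Changes of at least 2-fold were seen in 2, 4 and 2 members in Ecto, Endo and VK2, and in 6.47%, 9.28% and 2.24% of all genes. With library totals in place of TMM, the Ecto count was 23 rose and 7 fell. Of the genes that rose, 10 did so in each line: ADM, CA9, BNIP3, NDRG1, P4HA1, P4HA2, ALDOC, ENO2, LDHA and SLC16A3. Of the 16963 genes tested in every line, 4.81% rose in each. Of the 10 members, ALDOC in Ecto no longer passed without replicate 1 of every group (log2 change 0.24) or without replicate 2 (0.19), and LDHA in Ecto no longer passed without NT+GV replicate 2 (0.12) or NT+noGV replicate 1 (0.12).

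Among the HIF targets, CA9 rose in each line. In Endo it went from 3.48, 3.72 and 4.15 CPM to 11.1, 12.7 and 12.02 CPM (1.65 ± 0.10, adjusted p = 1.56e-15). In VK2 it went from 10.4, 9.78 and 10.5 CPM to 31.02, 30.6 and 28.7 CPM (1.56 ± 0.07, adjusted p = 2.8e-18), and in Ecto the change was 0.88 ± 0.07, adjusted p = 3.92e-10. The exposed and unexposed libraries did not overlap in any line. ADM, a vasodilator peptide, rose in VK2 from 33.8, 30.1 and 29.3 CPM to 76.2, 71.3 and 69.6 CPM (1.22 ± 0.10, adjusted p = 3.11e-08) and by 0.75 ± 0.08 in Ecto and 0.69 ± 0.07 in Endo. BNIP3, a mitochondrial autophagy receptor, rose by 0.38, 0.43 and 0.61 in Ecto, Endo and VK2, and the prolyl 4-hydroxylase subunits P4HA1 and P4HA2, which modify collagen, rose by 0.34 to 0.59. NDRG1, a stress-regulated gene, rose by 0.56, 0.30 and 0.83, in the same order of lines.

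ANGPTL4 and VEGFA departed from the other targets. ANGPTL4 in Ecto climbed from 8.61, 8.44 and 9.23 CPM to 50.9, 80.2 and 70.2 CPM (2.93 ± 0.20, adjusted p = 1.96e-09), with no overlap, the largest change of any member after GV. In Endo the gene was at 51.6, 54.7 and 51.02 CPM without and 41.8, 51.1 and 44.9 CPM with GV, which did not pass the test (-0.19 ± 0.11, adjusted p = 0.155). The response differed between those lines by 3.13 ± 0.20, adjusted p = 3.51e-18. VEGFA fell in Ecto from 372, 317 and 317 CPM to 216, 167 and 190.2 CPM (-0.81 ± 0.08, adjusted p = 5.79e-09). It fell also in Endo (-0.81 ± 0.11, adjusted p = 5.56e-06) and was not called in VK2 (-0.10 ± 0.10). VEGFA was thus lower in Ecto and Endo alone, while CA9 and ADM rose in all 3 lines, VK2 included.

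Among the oxygen-sensing genes, HIF1A moved in opposite directions in Ecto and VK2. It fell in Ecto, from 1387, 1224 and 1218 CPM to 1052, 923 and 932 CPM (-0.40 ± 0.09, adjusted p = 0.000759), and rose in VK2, from 757, 706 and 719 CPM to 912, 872 and 962 CPM (0.33 ± 0.05, adjusted p = 4.62e-06). The 2 responses differed (-0.70 ± 0.10, adjusted p = 8.62e-08). EPAS1 rose in Endo and VK2 (0.21 and 0.25). EGLN1 rose only in Ecto (0.35 ± 0.08, adjusted p = 0.00124), where its response exceeded that in Endo (0.36 ± 0.11, adjusted p = 0.00857) and in VK2 (0.36 ± 0.11, adjusted p = 0.00966). EGLN3 went in Ecto from 4.19, 3.59 and 3.76 CPM to 7.82, 10.2 and 9.12 CPM (1.22 ± 0.11, adjusted p = 3.21e-09) and rose in VK2 (0.82). In Endo, EGLN3 lay under 0.5 CPM in both groups.

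The glycolytic response depended on the line. In Endo and VK2 all 6 genes of lower glycolysis rose, and in Ecto only ENO2 did while ENO1 fell. ENO2, the second enolase, went from 14.9, 15.02 and 16.8 CPM to 39.95, 41.99 and 43.03 CPM in Endo (1.42 ± 0.06, adjusted p = 1.83e-19), from 11.8, 11.5 and 11.7 to 23.2, 23.01 and 23.5 CPM in VK2 (0.99 ± 0.07, adjusted p = 2.27e-12), and by 0.74 ± 0.05 in Ecto. No exposed library reached down to an unexposed one. PGK1, which yields the first ATP of the pathway, rose by 0.71 ± 0.04 in Endo and 0.56 ± 0.04 in VK2 and measured 0.10 ± 0.04 in Ecto. GAPDH, PGAM1, ENO1 and PKM rose by 0.09 to 0.32 in those 2 lines. The Endo call on ENO1 no longer passed without NT+GV replicate 1 (0.08) or 2 (0.06), or without NT+noGV replicate 1 (0.08) or 3 (0.09). In VK2 the calls on ENO1 (0.10) and PKM (0.11) were lost without replicate 2 of every group.

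Upper glycolysis differed in its counts between the lines, with 2 genes up and 6 down of 11 in Ecto, 5 up and 2 down in Endo and 9 up and 0 down in VK2. In Ecto the hexokinases HK1 and HK2, the isomerase GPI and the 3 phosphofructokinase genes PFKL, PFKM and PFKP fell by 0.16 to 0.30 on the log2 scale, although with library totals in place of TMM the calls on HK1 (-0.04) and HK2 (-0.09) were lost. Without replicate 2 of every group HK1 (-0.13) and HK2 (-0.23) did not pass either. HK2 was at 197, 188 and 195 CPM before and 169.6, 168 and 166 CPM after GV in Ecto. In VK2, GPI (0.25), PFKP (0.18) and HK1 (0.22) rose. HK2 in VK2 (0.15) no longer passed without NT+GV replicate 1 (0.09). ALDOC in Endo rose from its low base to 2.67, 3.51 and 3.17 CPM (1.60 ± 0.18, adjusted p = 7.84e-09). PFKFB3, the bifunctional enzyme that makes the activator of phosphofructokinase, did not pass in any line, at 0.16, -0.05 and -0.02 in Ecto, Endo and VK2.

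For glucose uptake and lactate, most changes were again in Endo and VK2. SLC2A1, the basal glucose transporter, was at 346, 337 and 354 CPM in VK2 without and 473, 457 and 440.1 CPM with GV (0.40 ± 0.04, adjusted p = 3.71e-09). It rose in Endo by 0.13 ± 0.03 and measured 0.04 ± 0.05 in Ecto. LDHA rose in Endo to 993, 991 and 968 CPM (0.59 ± 0.03, adjusted p = 3.66e-16) and in VK2 to 1909, 1919 and 2021 CPM (0.55 ± 0.03, adjusted p = 9e-15), clear of the unexposed libraries in both. SLC16A3, the exporter of lactate, rose by 0.20, 0.69 and 0.32 in Ecto, Endo and VK2. PDK1, which restrains pyruvate dehydrogenase, was at 16.3, 17.9 and 19.2 CPM and 17.9, 19.1 and 19.6 CPM in Endo and did not pass there (0.09 ± 0.06). SLC2A3 in Endo passed (1.22 ± 0.48, adjusted p = 0.0335) at 0.297, 0.340 and 0.311 CPM, a level so low that the call was lost under DESeq2 (1.27, adjusted p = 0.0835), without the filter on low counts (1.21) and without any 1 of its 6 libraries (1.12 to 1.37).

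**Figure D2:**
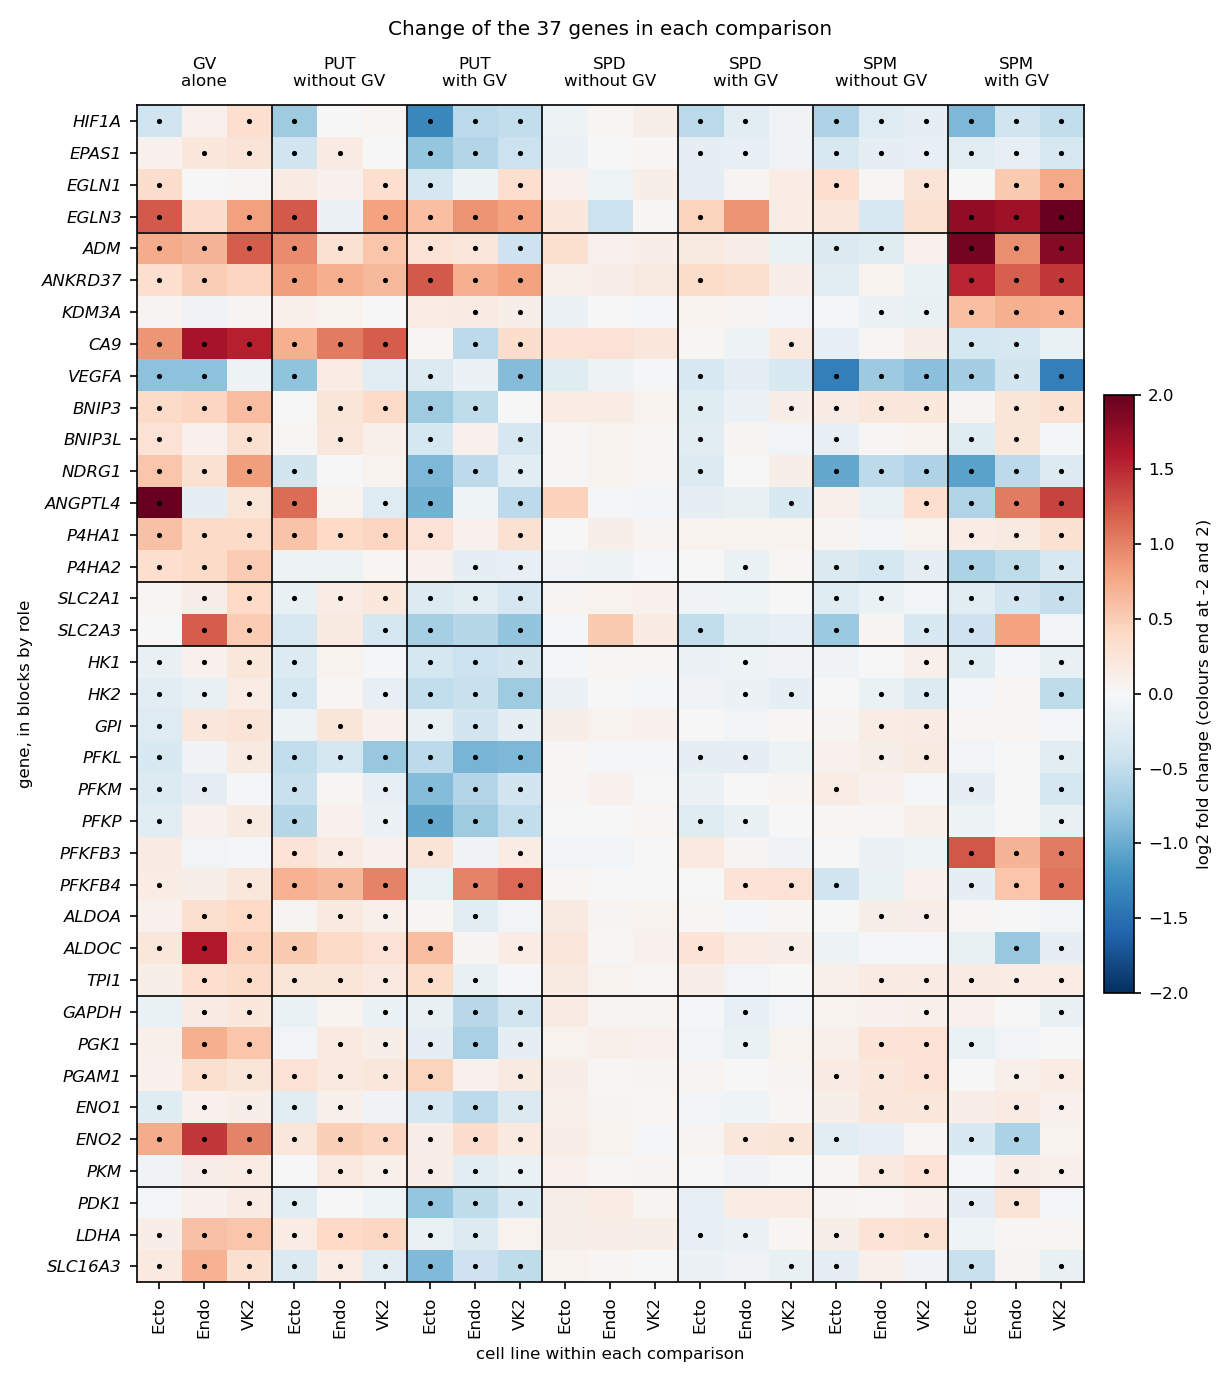
Log2 fold change of each gene (rows, in blocks by role) in 7 comparisons and 3 lines (columns), where GV alone and the comparisons without GV are set against NT+noGV and those with GV against NT+GV. Dots mark adjusted p under 0.05. The column of GV alone is mostly red in Endo and VK2, that of PUT with GV mostly blue below the HIF targets, and under SPM with GV a red group (EGLN3, ADM, ANKRD37, KDM3A and PFKFB3) stands beside blue HIF1A, VEGFA and NDRG1.

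PUT without GV raised more members than it lowered in Endo and VK2 and as many as it lowered in Ecto. Against untreated cells in the absence of bacteria, 13 members rose and 13 fell in Ecto, 20 rose and 1 fell in Endo and 17 rose and 8 fell in VK2, while 23.9% and 22.9% in Ecto, 15.6% and 16.3% in Endo and 22% and 23% in VK2 of all genes rose and fell. In all 3 lines 9 rose (ADM, ANKRD37, CA9, P4HA1, PFKFB4, TPI1, PGAM1, ENO2 and LDHA), and PFKL fell in all 3, where 7.23% and 9.66% of the 16963 genes tested in every line did. CA9 was at 24.3, 23.4 and 23.1 CPM in VK2 (1.21 ± 0.07, adjusted p = 2.04e-15), more than in any NT+noGV library of VK2, and the change was 1.03 ± 0.10 in Endo and 0.71 ± 0.07 in Ecto. ANKRD37, an ankyrin-repeat protein and HIF target, changed by 0.84, 0.71 and 0.65 in Ecto, Endo and VK2, and the VK2 call was lost without replicate 1 of every group (0.48). In Ecto, LDHA was lost without replicate 1 (0.11) or 2 (0.16) of every group and TPI1 without replicate 1 (0.22). PFKFB4, a second bifunctional enzyme, was at 9.36, 9.53 and 9.19 CPM in untreated and 20.3, 16.9 and 18.9 CPM in treated VK2 cells (1.00 ± 0.07, adjusted p = 1.43e-12). EGLN3 rose in Ecto (1.23 ± 0.11) and VK2 (0.81 ± 0.18). In Ecto the same treatment lowered HIF1A to 767, 773 and 789 CPM (-0.72 ± 0.09, adjusted p = 5.61e-07) and VEGFA (-0.81 ± 0.08, adjusted p = 4.73e-09), neither of which passed in Endo or VK2.

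In cells exposed to GV, the same pretreatment lowered 22 members in each line and raised 10 in Ecto, 6 in Endo and 11 in VK2. The shares of all genes that fell were 24.9%, 28.2% and 31.4%, and those that rose 31.5%, 27.9% and 29%. The median change of the members was -0.18, -0.22 and -0.19, and of all genes 0.07, 0.03 and 0.01. At least 2-fold changes numbered 3, 0 and 1, against 9.9%, 8.08% and 11.1% of all genes. Here the scaling mattered. Library totals in place of TMM moved the median of all genes to 0.12 in Ecto, 0.17 in Endo and 0.20 in VK2, and the split of members became 9 rose and 18 fell in Endo and 15 rose and 16 fell in VK2. The comparison shares the NT+GV libraries with that of GV alone, so the 2 sets of changes are not independent of each other.

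Of the genes that fell, 15 did so in all 3 lines: HIF1A, EPAS1, NDRG1, SLC2A1, HK1, HK2, GPI, PFKL, PFKM, PFKP, GAPDH, PGK1, ENO1, PDK1 and SLC16A3. Of all genes tested in every line, 15.8% fell in all 3. With library totals, the calls in VK2 on NDRG1 (-0.03) and PDK1 (-0.12) were lost, and GPI (0.00) and PGK1 (0.00) there were no longer below NT+GV. Library totals likewise ended the calls on SLC2A1 in Endo (-0.06) and on GPI (-0.10) and GAPDH (-0.11) in Ecto. The GAPDH call in Ecto was lost without any 1 of its 6 libraries but PUT+GV replicate 3 (-0.15 to -0.18). HIF1A was the member that fell most in Ecto, from 1052, 923 and 932 CPM to 382, 390.0 and 415 CPM (-1.29 ± 0.09, adjusted p = 3.8e-11). In Endo it went from 863, 836 and 929 CPM to 615, 585 and 602 CPM (-0.54 ± 0.06, adjusted p = 6.17e-08), and in VK2 the change was -0.48 ± 0.05. The pretreated libraries lay below the untreated ones throughout. EPAS1 was at 329, 321 and 319 CPM and 182, 195 and 192 CPM in Ecto (-0.77 ± 0.06, adjusted p = 4.85e-11), again without overlap, and fell by 0.58 in Endo and 0.42 in VK2.

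The phosphofructokinase genes, which encode the committed step of glycolysis, fell together. PFKP in Ecto dropped from 289, 282 and 281 CPM to 135, 144 and 138 CPM (-1.03 ± 0.05, adjusted p = 5.42e-15), with the groups well apart. PFKL changed by -0.52, -0.93 and -0.89 in Ecto, Endo and VK2, and PFKM by -0.87, -0.59 and -0.38. HK2, the inducible hexokinase, fell most in VK2, from 279, 251 and 247 CPM to 156, 155 and 164 CPM (-0.71 ± 0.04, adjusted p = 2.13e-15). PDK1 was at 21.7, 21.3 and 20.4 CPM in Ecto and at 12.5, 12.6 and 12.03 CPM after PUT (-0.77 ± 0.07, adjusted p = 2.1e-10), and SLC16A3 there was at 267, 264 and 279.9 CPM and 143, 156 and 141 CPM (-0.89 ± 0.06, adjusted p = 1.93e-12). SLC2A1 changed by -0.28, -0.21 and -0.33. The genes named here, of glucose uptake, the first steps of the pathway, PDK1 and lactate export, were thus lower together. Of the 20 genes of upper and lower glycolysis, pyruvate and lactate, 12, 15 and 12 fell in Ecto, Endo and VK2. Another 6, 2 and 5 of the 20 rose, next to the shares of all genes given above.

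Against this, EGLN3, ANKRD37 and ENO2 rose in all 3 lines, as did 13.8% of all genes tested in every line. ANKRD37 in Ecto rose from 4.81, 5.21 and 5.84 CPM to 11.2, 13.6 and 12.3 CPM (1.23 ± 0.09, adjusted p = 2.38e-11). EGLN3 in Ecto was at 7.82, 10.2 and 9.12 CPM and 12.9, 14 and 14.1 CPM (0.60 ± 0.10, adjusted p = 1.19e-05), and the Endo call on this low gene was lost without NT+GV replicate 2 (0.84) or PUT+GV replicate 2 (0.73). ENO2 rose by 0.13, 0.35 and 0.20 in Ecto, Endo and VK2. DESeq2 did not make the Ecto call (0.07, adjusted p = 0.223), which was lost also without NT+GV replicate 2 (0.11) or PUT+GV replicate 2 (0.12) or 3 (0.08). The VK2 call on ENO2 was lost without PUT+GV replicate 2 (0.14) or 3 (0.16). PFKFB4 rose in VK2 from 10.3, 10.8 and 11.5 CPM to 22.5, 24.4 and 24.5 CPM (1.13 ± 0.07, adjusted p = 8.91e-15) and by 1.00 ± 0.07 in Endo, and in Ecto it measured -0.14 ± 0.06. ADM fell in VK2 (-0.42 ± 0.09, adjusted p = 0.000806) and rose in Ecto (0.28), a call lost without PUT+GV replicate 3 (0.21).

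The interaction term tested whether PUT acted differently in exposed cells, and members that passed were more often lower than higher. It was lower in 17 genes and higher in 3 in Ecto, 23 and 1 in Endo and 26 and 0 in VK2, while of all genes 14.4% and 12% in Ecto, 14.9% and 19.9% in Endo and 9.82% and 17.8% in VK2 were higher and lower. At an unadjusted p under 0.05, 0 members were higher in VK2, and DESeq2 called 0 there. DESeq2 called 20 lower and 1 higher in Ecto. In every line 10 members were lower (HIF1A, EPAS1, CA9, BNIP3, NDRG1, PFKM, PFKP, PDK1, LDHA and SLC16A3), as were 2.78% of all genes. In most members called in both settings in Ecto and VK2, PUT had the same direction with and without GV. In Ecto 9 rose in both and 13 fell in both, in VK2 9 and 8, and in Endo 4 and 1. Of all genes tested, 16.7% rose and 14.9% fell in both in Ecto, 15% and 18.3% in VK2 and 8.61% and 10.9% in Endo. In Endo, 12 members rose with PUT alone and fell with PUT when GV was present, namely ALDOA, BNIP3, CA9, ENO1, EPAS1, GPI, LDHA, PGK1, PKM, SLC16A3, SLC2A1 and TPI1. In Ecto 2 did so (ANGPTL4 and LDHA), and in VK2 4 (ADM, PGK1, PKM and SLC2A1). The same reversal was called for 2.6% of genes tested in Endo, 1.24% in Ecto and 1.53% in VK2. With library totals the Endo count was 9, without ALDOA, SLC2A1 and TPI1, and without NT+noGV replicate 1 or PUT+noGV replicate 2 it was 11, without ENO1. LDHA in Ecto was lost with library totals and without NT+GV replicate 2 or PUT+GV replicate 2, which left ANGPTL4 as the 1 gene called both ways in those last fits. PGK1 and PKM in VK2 were lost with library totals and without replicate 2 of every group, and PGK1 also without NT+noGV replicate 1 or PUT+noGV replicate 1. With library totals the counts were 2 in Ecto (EGLN1 and ANGPTL4) and 3 in VK2 (ADM, BNIP3L and SLC2A1), and without replicate 2 of every group they were 1 and 2. In Endo, CA9 had the widest reversal, as PUT took it up from 3.48, 3.72 and 4.15 to 7.60, 8.01 and 7.66 CPM without bacteria and down from 11.1, 12.7 and 12.02 to 8.16, 7.90 and 8.79 CPM with them (interaction -1.56 ± 0.13, adjusted p = 1.44e-10). The PUT+GV libraries overlapped the PUT+noGV ones. ANGPTL4 in Ecto had the largest of the PUT terms (-2.06 ± 0.27, adjusted p = 2.34e-05). PGK1 in Endo was at 297, 308 and 305 CPM untreated, 346, 359 and 343 CPM with PUT, 488, 522 and 483 CPM with GV and 307, 338 and 308 CPM with both, so that PUT+GV libraries overlapped the untreated range (interaction -0.85 ± 0.05, adjusted p = 6.2e-13). BNIP3 and LDHA in Endo had terms of -0.74 ± 0.06 and -0.67 ± 0.05.

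**Figure D3:**
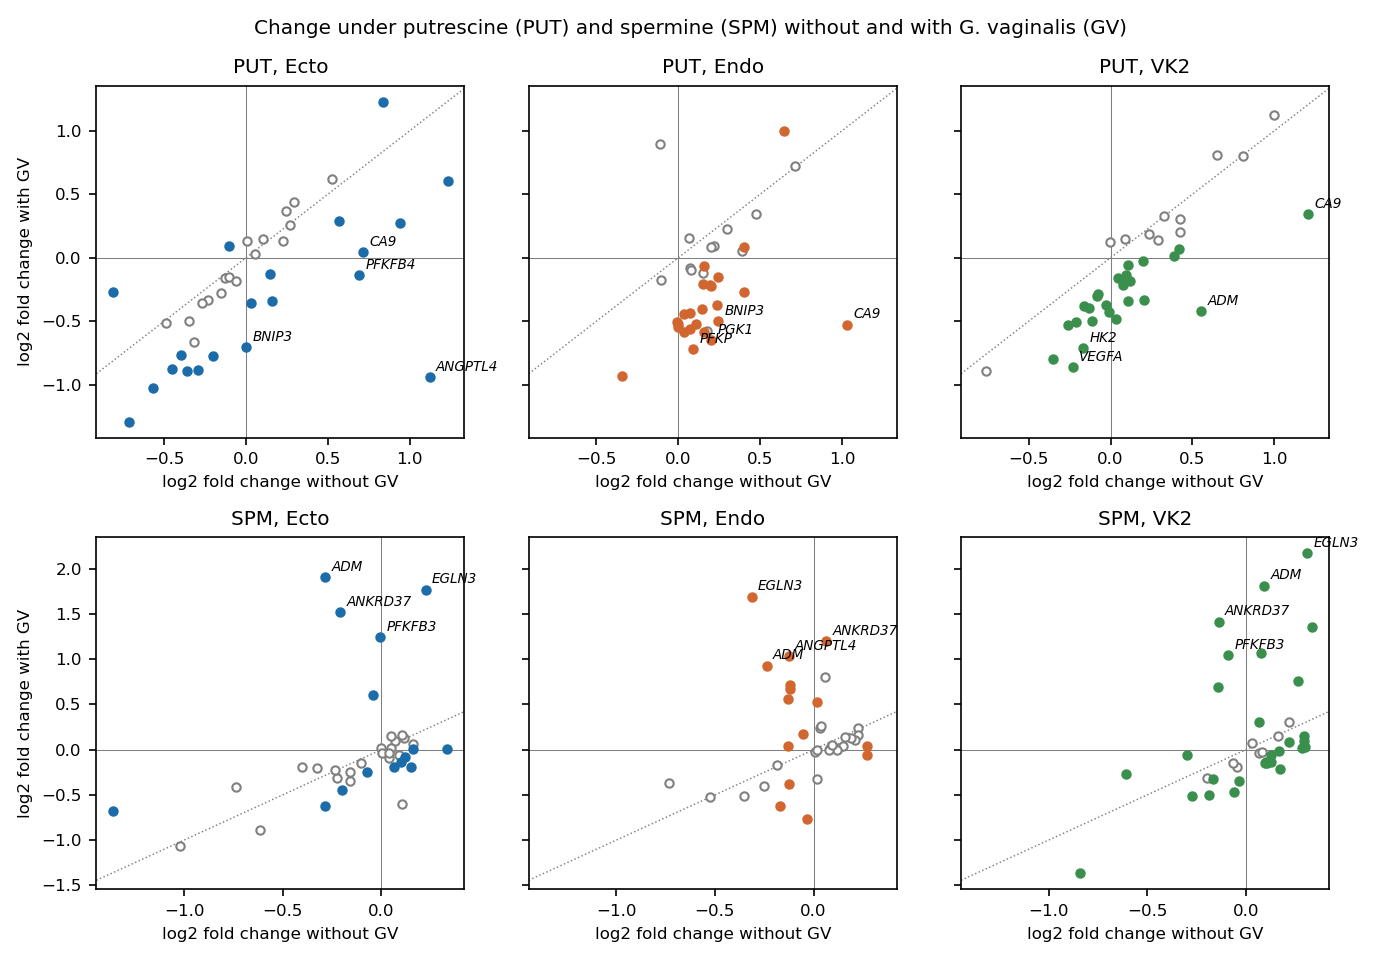
Log2 fold change of each gene under PUT (top) and SPM (bottom) without GV (x axis) and with GV (y axis), 1 panel per line and 1 point per gene. Filled points passed the interaction test (adjusted p under 0.05), the dotted line marks equal change, and the 4 filled genes with the largest term are named. Under PUT nearly all filled points lie below the dotted line, and under SPM a few, EGLN3 and ADM among them, lie far above it.

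SPM moved a small group of HIF targets far upward and others downward. With GV it raised 7 members and lowered 17 in Ecto, raised 16 and lowered 9 in Endo, and raised 14 and lowered 14 in VK2. Of all genes, 28.5% and 27.5% in Ecto, 21.9% and 21.1% in Endo and 27.9% and 30.3% in VK2 rose and fell. At least 2-fold changes numbered 5, 3 and 7, against 13.5%, 5.83% and 11.1% of all genes, so that the Ecto count lay near its share. In all 3 lines 7 members rose (EGLN3, ADM, ANKRD37, KDM3A, P4HA1, PFKFB3 and TPI1) and 6 fell (HIF1A, EPAS1, VEGFA, NDRG1, P4HA2 and SLC2A1), while 13.9% and 11.8% of all genes tested in every line did. These members are 18.9% and 16.2% of the 37, a little above the shares of all genes. In Ecto, the calls on P4HA1 (0.15) and TPI1 (0.17) were lost with library totals (0.09 and 0.10) and without single libraries, P4HA1 without NT+GV replicate 1 (0.13) or 3 (0.11) or SPM+GV replicate 2 (0.11), and TPI1 without any but SPM+GV replicate 1 (0.15 to 0.17). That on EPAS1 (-0.20) was lost without replicate 1 of every group (-0.16). In Endo, VEGFA was lost without replicate 1 (-0.33) or 3 (-0.36) of every group, and P4HA1 without replicate 1 (0.15).

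EGLN3, the prolyl hydroxylase, rose in each line. In Ecto it went from 7.82, 10.2 and 9.12 CPM to 26.1, 35.3 and 30.9 CPM (1.77 ± 0.10, adjusted p = 3.22e-14), and in VK2 from 2.18, 2.19 and 2.17 CPM to 7.53, 11.1 and 10.97 CPM (2.17 ± 0.15, adjusted p = 1.25e-13). Even in Endo, where the gene was scarce, the groups did not overlap, at 0.462, 0.396 and 0.435 CPM and 1.13, 1.61 and 1.47 CPM (1.69 ± 0.31, adjusted p = 4.06e-05). ADM rose in Ecto from 73.2, 68.1 and 66.3 CPM to 213, 298 and 269.9 CPM (1.91 ± 0.08, adjusted p = 1.22e-15) and in VK2 from 76.2, 71.3 and 69.6 CPM to 217, 281 and 265 CPM (1.81 ± 0.09, adjusted p = 4.03e-12). In Endo it reached 43.3, 52.8 and 50.5 CPM (0.93 ± 0.06, adjusted p = 1.54e-13), above all NT+GV libraries. ANKRD37 in Ecto went to 14.3, 15.4 and 15.9 CPM (1.52 ± 0.09, adjusted p = 2.55e-13). In Endo it went from 3.27, 3.09 and 3.85 CPM to 7.73, 7.13 and 8.58 CPM (1.20 ± 0.11, adjusted p = 3.44e-10), and in VK2 from 2.25, 1.49 and 2.09 CPM to 4.77, 5.07 and 5.996 CPM (1.42 ± 0.18, adjusted p = 2.58e-08), with no overlap in any line. KDM3A, a histone demethylase, changed by 0.60, 0.71 and 0.69 in Ecto, Endo and VK2.

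PFKFB3, a bifunctional enzyme that sets the level of a phosphofructokinase activator, rose in each line. It went in Ecto from 67.8, 72.2 and 73.3 CPM to 147, 188 and 169 CPM (1.24 ± 0.07, adjusted p = 2.95e-14). It rose in VK2 from 65.6, 65.1 and 61.4 CPM to 122, 146 and 128 CPM (1.05 ± 0.05, adjusted p = 3.79e-18) and in Endo by 0.68 ± 0.05. The first SPM+GV library was the lowest of its group in each line and still lay above every NT+GV library. PFKFB4 rose in VK2 to 21.96, 24.01 and 22.8 CPM (1.07 ± 0.07, adjusted p = 6.58e-14) and in Endo (0.56 ± 0.07), and fell in Ecto (-0.19 ± 0.06), the last a call lost without SPM+GV replicate 2 (-0.16). Of the 20 genes of upper and lower glycolysis, pyruvate and lactate, 2 rose and 7 fell in Ecto, 7 and 2 in Endo, and 6 and 8 in VK2, next to the shares of all genes above. The isomerase TPI1 rose by 0.17, 0.14 and 0.15, and PDK1 rose in Endo (0.26) and fell in Ecto (-0.19), the latter lost without replicate 1 (-0.18) or 2 (-0.18) of every group. GPI (0.02, 0.04 and -0.02), ALDOA (0.02, 0.02 and -0.06) and LDHA (-0.09, 0.04 and 0.03) passed in no line, and HK2 fell in VK2 alone, from 279, 251 and 247 CPM to 185, 191 and 171 CPM (-0.51 ± 0.04, adjusted p = 7.38e-12). ALDOC fell in Endo (-0.77 ± 0.17, adjusted p = 0.000466) and VK2 (-0.20). ENO2 fell in Endo, to 25.9, 27.96 and 27.2 CPM (-0.63 ± 0.05, adjusted p = 4.42e-11), and in Ecto (-0.31).

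HIF1A fell under SPM with GV, in Ecto to 549, 514 and 502 CPM (-0.89 ± 0.09, adjusted p = 1.43e-08), with changes of -0.40 ± 0.06 in Endo and -0.50 ± 0.05 in VK2. EGLN1 rose in Endo, from 27.4, 24.6 and 26.997 CPM to 39.2, 35.9 and 38.3 CPM (0.52 ± 0.06, adjusted p = 7.12e-09), and in VK2, from 26.4, 21 and 27.7 CPM to 43.4, 40.99 and 44.1 CPM (0.76 ± 0.08, adjusted p = 1.1e-08), and measured 0.00 ± 0.08 in Ecto. VEGFA fell in VK2 from 918, 802 and 809 CPM to 341, 305 and 336 CPM (-1.36 ± 0.11, adjusted p = 5.53e-09). NDRG1 in Ecto dropped from 899, 837 and 898 CPM to 418, 415 and 426 CPM (-1.07 ± 0.05, adjusted p = 2.18e-15). Both genes were separate from their NT+GV groups. ANGPTL4 rose in VK2, to 78.5, 90.5 and 79.6 CPM (1.35 ± 0.06, adjusted p = 4.35e-18), and in Endo, to 84.4, 107 and 92.5 CPM (1.04 ± 0.11, adjusted p = 3.3e-07). In Ecto it fell (-0.60 ± 0.17, adjusted p = 0.00691), a call lost without replicate 2 of every group (-0.52) or replicate 3 (-0.66). SLC2A1 changed by -0.22, -0.38 and -0.46 and P4HA2 by -0.63, -0.51 and -0.31.

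**Figure D4:**
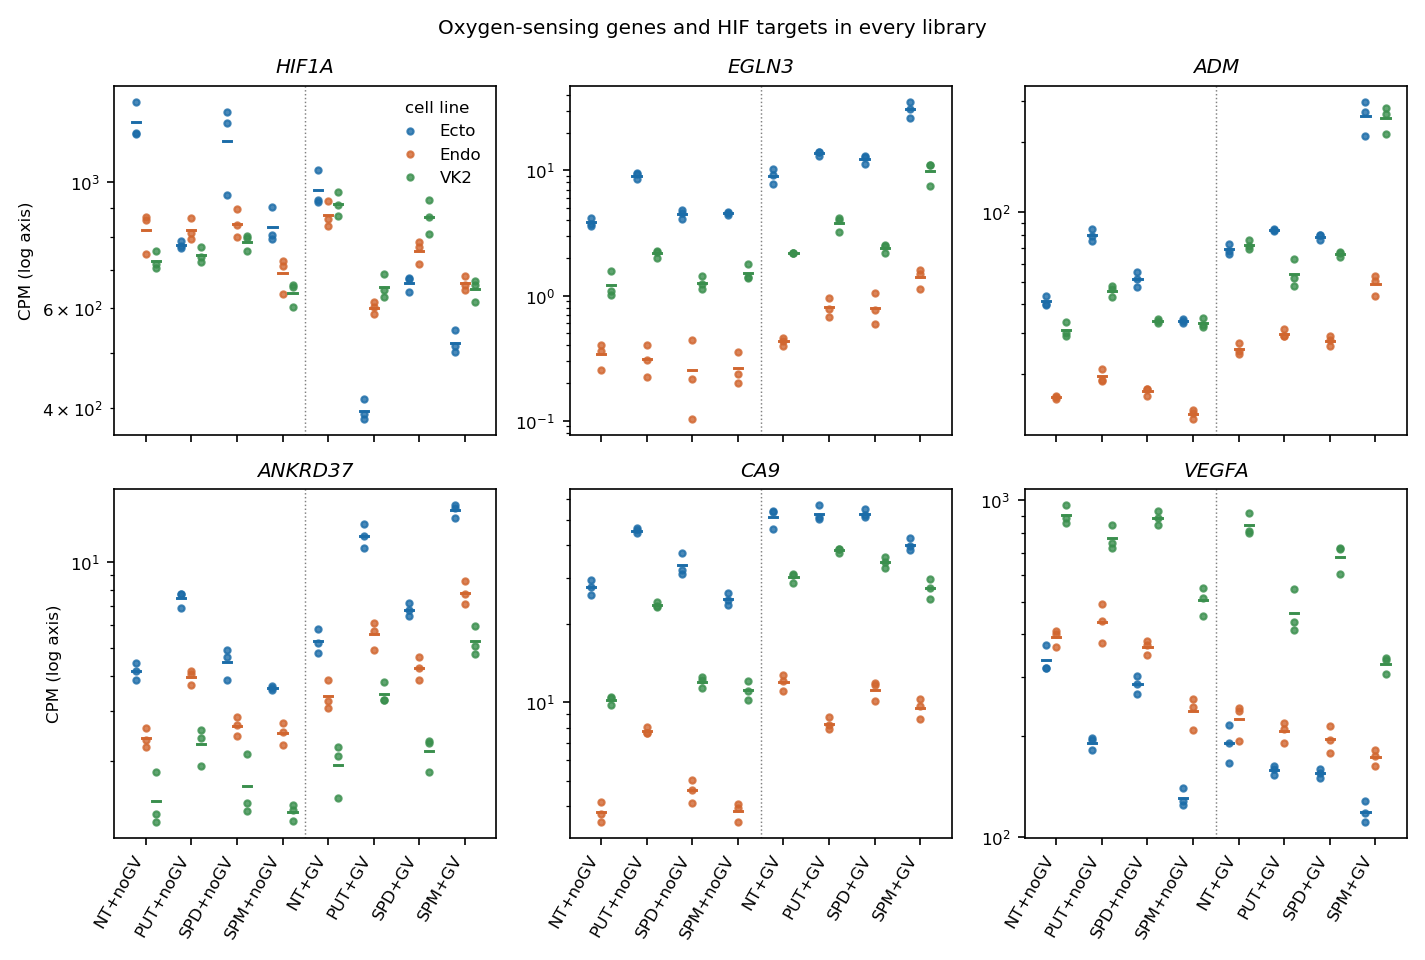
CPM (log axis, a separate range for each gene) of 6 oxygen-sensing and HIF target genes in each of the 8 groups, with 3 points per line and a bar at their mean. GV groups lie right of the dotted line. EGLN3, ADM and ANKRD37 are highest in SPM+GV in each line, and HIF1A in Ecto is lowest in PUT+GV.

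Without bacteria SPM lowered several of these genes, and none of EGLN3, ADM, ANKRD37, KDM3A and PFKFB3 rose. ADM fell in Ecto and Endo and KDM3A in Endo and VK2, and each of these calls was lost when some single library was left out. HIF1A, EPAS1, VEGFA, NDRG1 and P4HA2 fell in all 3 lines, and BNIP3, PGAM1 and LDHA rose in all 3, while 4.65% of all genes tested in every line fell and 4.47% rose in all. BNIP3 in Endo was lost without replicate 1 of every group (0.18). In Ecto, BNIP3 was lost without NT+noGV replicate 2 (0.15) or 3 (0.15) or SPM+noGV replicate 3 (0.14), and PGAM1 without NT+noGV replicate 1 (0.14). LDHA there was lost without any 1 of its 6 libraries (0.10 to 0.13). HIF1A was lost in Endo without replicate 1 (-0.26) or 3 (-0.22) of every group and in VK2 without replicate 1 (-0.18). The totals were 5 up and 12 down in Ecto, 10 and 9 in Endo, and 14 and 8 in VK2, with 11.3% and 12.2% in Ecto, 8.02% and 10.1% in Endo and 17.4% and 15.6% in VK2 of all genes rising and falling. Without replicate 1 of every group the Ecto count of 17 became 8 and the Endo count of 19 became 11, and without replicate 2 the Ecto count became 10. VEGFA in Ecto was at 128, 125 and 139.7 CPM, against 372, 317 and 317 CPM untreated (-1.36 ± 0.08, adjusted p = 6.53e-12), and fell by 0.73 in Endo and 0.84 in VK2. NDRG1 changed by -1.02, -0.52 and -0.61 in Ecto, Endo and VK2. EGLN3 (0.22, -0.31 and 0.31), ANKRD37 (-0.21, 0.07 and -0.14) and PFKFB3 (-0.01, -0.12 and -0.09) passed in no line. ADM was at 34.5, 33.9 and 33.3 CPM in Ecto (-0.28 ± 0.09), a fall that was lost without NT+noGV replicate 1 (-0.24) or SPM+noGV replicate 2 (-0.28) or 3 (-0.28), and at 31.9, 32.5 and 34.997 CPM in VK2 (0.09 ± 0.11).

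The interaction test set these responses apart. EGLN3, ADM, ANKRD37, KDM3A and PFKFB3 had a higher SPM effect with GV than without in every line, and PGK1 and LDHA a lower one, as did 7.1% and 3.76% of all genes tested in every line. The Ecto, Endo and VK2 terms for ADM were 2.19 ± 0.12, 1.17 ± 0.10 and 1.72 ± 0.14, with adjusted p = 4.67e-13, 5.57e-11 and 1.92e-08. That for EGLN3 was 1.54, 2.01 and 1.86 and that for PFKFB3 1.25, 0.80 and 1.14. Counts were 6 higher and 9 lower in Ecto, 10 and 5 in Endo and 11 and 18 in VK2, against 19% and 17.3% in Ecto, 14.1% and 10.2% in Endo and 17% and 21.9% in VK2 of all genes higher and lower, and with library totals the VK2 split was 12 and 11. Without replicate 2 of every group the Ecto total was 9. VEGFA had terms of opposite sign in Ecto (0.68 ± 0.11, adjusted p = 2.51e-05) and VK2 (-0.53 ± 0.15, adjusted p = 0.00937). For HIF1A the term passed only in VK2 (-0.31 ± 0.07), with -0.28 ± 0.12 in Ecto and -0.15 ± 0.08 in Endo.

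**Figure D5:**
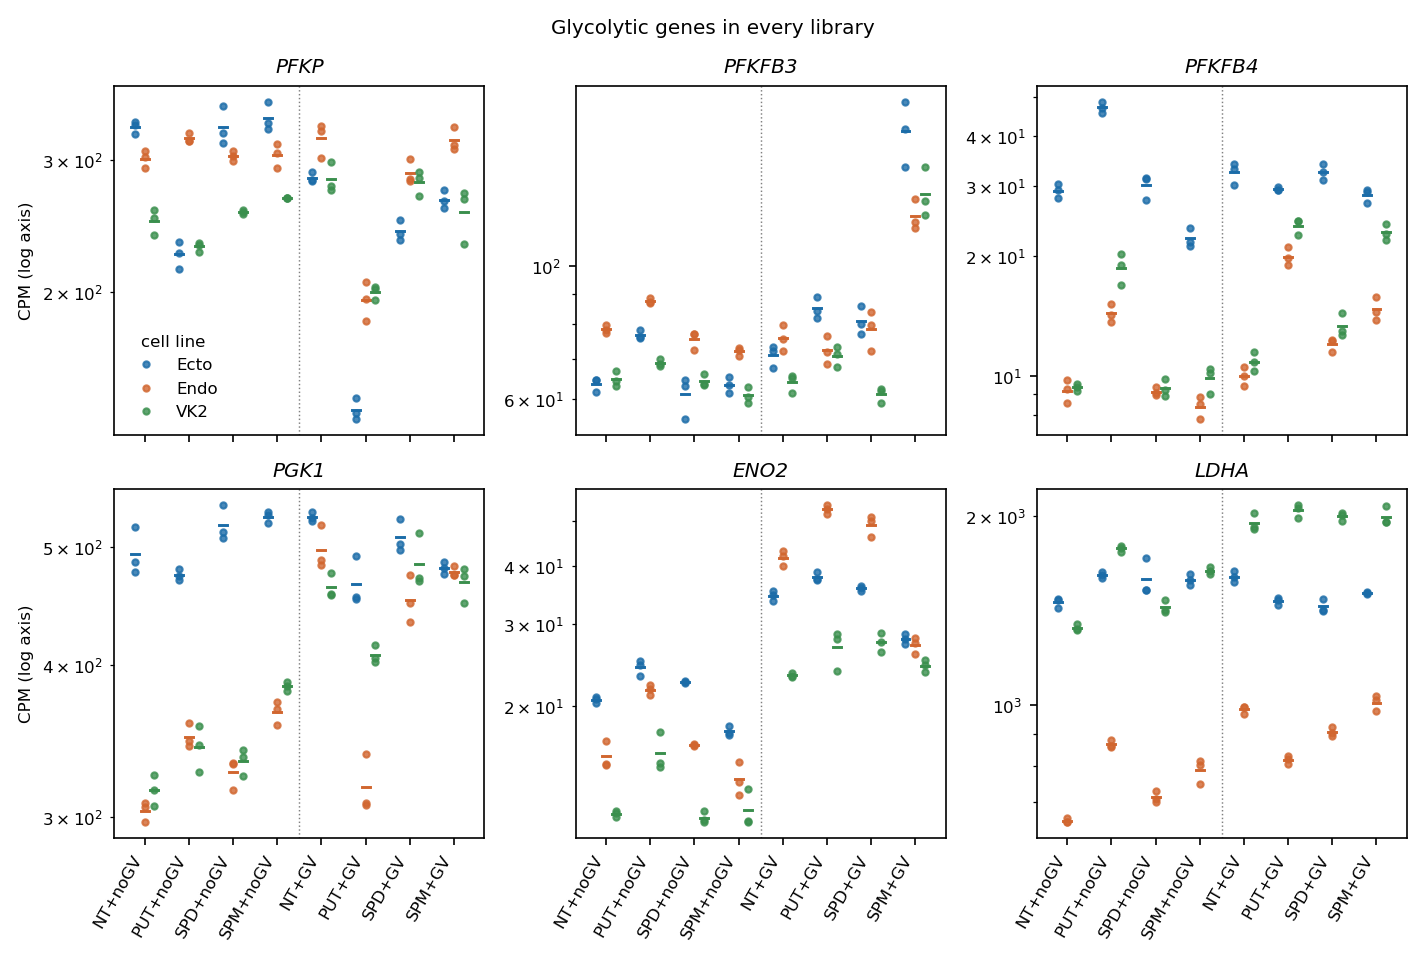
CPM (log axis, a separate range for each gene) of 6 glycolytic genes in each of the 8 groups, with 3 points per line and a bar at their mean. GV groups lie right of the dotted line. PFKP is lowest in PUT+GV in each line, PFKFB3 is highest in SPM+GV, and PFKFB4 in VK2 is high in the PUT groups and in SPM+GV.

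SPD, a triamine, and SPM, a tetramine with 1 more aminopropyl unit, were given at the same 400 µM and can be compared directly. SPD alone changed 0 members in any line by edgeR, where 0.303%, 0.181% and 0.46% of all genes changed. At an unadjusted p under 0.05, 12 were higher and 1 lower in Ecto, 7 and 1 in Endo and 8 and 0 in VK2. DESeq2 called 4, 1 and 1. With GV, SPD raised 3 and lowered 10 in Ecto, raised 2 and lowered 10 in Endo, and raised 5 and lowered 3 in VK2, with 6.53% and 6.6% in Ecto, 5.22% and 8.71% in Endo and 4.84% and 7.87% in VK2 of all genes rising and falling. None of these calls reached a 2-fold change, which 0.55%, 0.443% and 0.433% of all genes did. HIF1A in Ecto, at 676, 640.5 and 678 CPM, had the largest change of those called (-0.54 ± 0.09, adjusted p = 0.000353). The other calls were fragile: 12 of 13 in Ecto, 11 of 12 in Endo and 7 of 8 in VK2 were lost under at least 1 alternative. Left without Ecto NT+GV replicate 1 or SPD+GV replicate 2, the Ecto count was 7. Without Endo NT+GV replicate 1 the Endo count was 7, and without VK2 NT+GV replicate 1 or SPD+GV replicate 2 the VK2 count was 4 or 3. The interaction of SPD with GV was lower in 4 members in Ecto, 5 in Endo and 0 in VK2 and higher in 0, while 1.54% and 1.59% in Ecto, 1.14% and 2.31% in Endo and 0.108% and 0.244% in VK2 of all genes were higher and lower. DESeq2 called 7, 9 and 0 members, and at an unadjusted p under 0.05, 1 was higher and 16 lower in Ecto, 2 and 16 in Endo and 2 and 8 in VK2. Leaving out 1 library at a time gave 2 to 7 members in Ecto, the 7 without SPD+noGV replicate 3, and 2 to 8 in Endo, the 8 without NT+GV replicate 3.

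Set directly against SPD in the presence of GV, SPM was higher in 9 members and lower in 12 in Ecto, 21 and 7 in Endo and 13 and 14 in VK2, and 27.6% and 26.2% in Ecto, 23.4% and 21.2% in Endo and 25.1% and 27.5% in VK2 of all genes were higher and lower. This is 1 pair of compounds in 3 lines. With library totals the Ecto split was 6 and 17. The Ecto, Endo and VK2 differences for ADM were 1.73 ± 0.08, 0.81 ± 0.06 and 1.95 ± 0.09, with adjusted p = 9.2e-15, 3.17e-12 and 2.2e-12. EGLN3 differed by 1.32, 0.79 and 2.03, ANKRD37 by 1.16, 0.87 and 1.28, PFKFB3 by 1.05, 0.62 and 1.11 and EGLN1 by 0.21, 0.47 and 0.61, all toward SPM. SPM was lower than SPD for HIF1A (-0.35, -0.19 and -0.43), NDRG1 (-0.80, -0.52 and -0.38), CA9, P4HA2, SLC2A1, ALDOC and ENO2 in every line. For ALDOA, GPI and PGK1 no difference passed in any line. The interval of 2 standard errors either side was, for GPI, -0.09 to 0.11 in Ecto and 0.0049 to 0.18 in Endo. In VK2 it was -0.14 to 0.01. In Ecto, Endo and VK2 it was -0.17 to 0.0009, -0.0012 to 0.15 and -0.13 to 0.03 for PGK1. For ALDOA it was -0.13 to 0.10, -0.02 to 0.14 and -0.15 to -0.0058. The intervals were not corrected over genes, and both ends had the same sign for GPI in Endo and ALDOA in VK2. PUT, a diamine, was given at 4 mM, a different dose, and its values stand beside these without a comparison.

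The response itself differed between lines for many members. For GV alone, 23 members differed between Ecto and Endo (5 higher and 18 lower in Ecto), 26 between Ecto and VK2 (3 and 23) and 13 between Endo and VK2 (4 and 9), where 28%, 27.5% and 25.8% of all genes did. By direction, 13.5% and 14.5% of all genes were higher and lower in the first comparison, 11.9% and 15.6% in the second and 11.3% and 14.4% in the last. The last count was 8 without replicate 1 or replicate 2 of every group, and its split was 6 and 5 with library totals. All 6 genes of lower glycolysis responded less in Ecto than in Endo, with differences of -0.60 ± 0.06, adjusted p = 3.96e-13 for PGK1, and -0.66 ± 0.08, adjusted p = 6.29e-10 for ENO2. Of 11 upper glycolysis genes, 9 responded less in Ecto than in VK2. ADM responded more in VK2 than in Endo (-0.52 ± 0.13, adjusted p = 0.00185) and NDRG1 likewise (-0.52 ± 0.06, adjusted p = 1.09e-10), whereas ALDOC responded more in Endo (1.15 ± 0.17, adjusted p = 1.07e-07).

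For PUT with GV, 26, 21 and 16 members differed in response between Ecto and Endo (13 higher and 13 lower in Ecto), Ecto and VK2 (9 and 12), and Endo and VK2 (4 and 12), with 24.8%, 35% and 22.4% of all genes differing. By direction, 12.7% and 12.1% of all genes were higher and lower in the first comparison, 17.3% and 17.7% in the second and 11.2% and 11.2% in the last. Without replicate 1 of every group the first was 17 and the last 9. With library totals the split in Ecto against VK2 moved from 9 higher and 12 lower to 6 and 17. The fall of HIF1A was deeper in Ecto than in Endo (-0.79 ± 0.10, adjusted p = 5.53e-09) and VK2 (-0.85 ± 0.10, adjusted p = 2.85e-10). CA9 responded higher in VK2 than in Endo (-0.87 ± 0.11, adjusted p = 2.57e-09), and PFKFB4 lower in Ecto than in VK2 (-1.31 ± 0.09, adjusted p = 3.18e-19). For SPM with GV, 19, 15 and 18 members differed (25.8%, 31.6% and 24.6% of all genes). By direction, 10.8% and 15% of all genes were higher and lower in the first comparison, 17.1% and 14.5% in the second and 16.1% and 8.51% in the last. These splits depended on the scaling. Ecto against VK2 had 6 higher and 9 lower, and 2 and 21 with library totals. Endo against VK2 had 12 and 6, and 7 and 7 with RLE (relative log expression) size factors or 3 and 9 with library totals. Ecto against Endo had 4 and 15, and 5 and 11 with RLE. Without replicate 2 or replicate 3 of every group the count for Endo against VK2 was 11. The ANGPTL4 response in Ecto was below that in Endo (-1.68 ± 0.18, adjusted p = 1.37e-10) and VK2 (-1.94 ± 0.18, adjusted p = 2.36e-12). VEGFA fell further in VK2 than in Endo (1.05 ± 0.14, adjusted p = 5.5e-08), and ADM rose less in Endo than in Ecto (0.94 ± 0.12, adjusted p = 1.05e-08). For EGLN3, ANKRD37 and KDM3A no difference in the SPM response passed between any 2 lines.

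Other genes of the pathway, listed by name, were counted in the same way. Of 30 further hypoxia targets, 11 rose and 8 fell with GV alone in Ecto, 8 and 13 in Endo and 18 and 4 in VK2. These are 36.7% and 26.7%, 26.7% and 43.3%, and 60% and 13.3% of the list, where 20.9% and 23.7% in Ecto, 25.7% and 28.7% in Endo and 13.9% and 12.5% in VK2 of all genes rose and fell, so that the rising share in Endo lay near that of all genes. IGFBP3, a binding protein of insulin-like growth factors, rose by 1.71, 2.68 and 2.53, while in Endo DDIT4, an inhibitor of mTOR signalling (-0.99), and the secreted STC2 (-1.66) fell. With PUT and GV, 16 of these 30 fell in Ecto, 14 in Endo and 13 in VK2, and 9, 9 and 7 rose, where 31.5% and 24.9% in Ecto, 27.9% and 28.2% in Endo and 29% and 31.4% in VK2 of all genes rose and fell. With SPM and GV, 11 rose and 12 fell in Ecto, 12 and 10 in Endo and 13 and 11 in VK2, where 28.5% and 27.5% in Ecto, 21.9% and 21.1% in Endo and 27.9% and 30.3% in VK2 of all genes rose and fell. The counts of the shorter lists that follow stand beside these same shares. EFNA1, an ephrin ligand, rose by 1.61, 1.69 and 2.20, and PPP1R3C, a glycogen-targeting phosphatase subunit, by 2.25, 1.03 and 2.26. Among 12 tested of 13 partners of the factors, 4, 2 and 1 rose and 3, 5 and 0 fell after GV alone, in that order of lines, 8, 2 and 6 rose and 2, 2 and 2 fell with PUT and GV, and 6, 5 and 8 rose and 3, 0 and 1 fell with SPM and GV. CITED2, which competes with HIF1A for its coactivators, rose by 1.52, 1.32 and 2.01, adjusted p = 1.04e-16, 5.07e-17 and 2.71e-16, and the coactivator EP300 by 1.22, 0.68 and 0.75. ARNT2, an alternative dimer partner, rose with GV alone by 1.99, 1.71 and 0.75.

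Of 26 further glycolytic isoforms and branch enzymes, 21 were tested in Ecto and Endo and 20 in VK2. With SPM and GV, 7, 9 and 7 rose and 6, 5 and 10 fell, and TXNIP and ARRDC4, alpha-arrestins that restrain glucose uptake, rose by 3.26, 3.21 and 4.99 and 2.82, 2.79 and 3.19. With PUT and GV, 7, 6 and 4 rose and 5, 9 and 9 fell. TKT, a transketolase of the pentose phosphate pathway, changed by -0.62, -0.70 and -0.52. With GV alone, 5, 7 and 3 rose and 8, 9 and 2 fell, and TKT fell in Ecto (-0.61) and Endo (-0.48). Of 13 genes of mitochondrial pyruvate use, 1, 2 and 0 rose and 7, 5 and 1 fell after GV alone in the 3 lines, the last of 12 tested. The phosphatase PDP1, which activates pyruvate dehydrogenase, fell in every line (-0.72, -0.73 and -0.40). The kinase PDK4, which inactivates the same complex, rose in Ecto (1.74) and Endo (3.72). With PUT and GV, 5, 5 and 3 rose and 6, 4 and 7 fell. DLD, the shared dehydrogenase subunit, changed by -0.45, -0.45 and -0.41. With SPM and GV, 3, 0 and 2 rose and 6, 3 and 6 fell.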

How the data were processed

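RNA-seq libraries of 3 cell lines (24 per line, 8 groups of 3) were analysed from the deposited table of estimated counts per gene, which the authors made with Salmon and tximeta against GENCODE 44 on GRCh38.p13, and whose values were already whole. Estimated counts divide reads between similar sequences, so genes with pseudogenes are less certain. The 37 genes and all other lists were chosen by name, with earlier results of these data known. Counts were fitted with edgeR 4.0.16 (TMM, filterByExpr, robust quasi-likelihood F test) in R 4.3.3, with 1 model per line (11 comparisons) and 1 model over 72 libraries for 12 comparisons between lines (21195 genes). P-values were adjusted by Benjamini-Hochberg over all genes tested within a comparison, with a threshold of 0.05. Standard errors were the absolute log2 fold change divided by the square root of F.

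Library totals ranged from 20152143 to 42767996 counts. Replicate pairs differed by more than sampling noise (chi-square per degree of freedom of at least 2.27), so no library was counted as a duplicate. Alternatives were library totals alone, RLE size factors, no filter on low counts, DESeq2 1.42.0, a replicate block, pseudogene counts added to members, and leaving out each replicate number or each single library. All 37 genes are named. Values of single libraries are given, in at least 1 line and comparison, for HIF1A, EPAS1, EGLN1, EGLN3, SLC2A1, HK2, PFKFB3, PDK1 and LDHA. They are given also for up to 4 genes per direction with the largest change of at least 2-fold in each main comparison. The main comparisons here are GV alone and each polyamine with GV. From the other lists, up to 3 genes per comparison were taken by smallest adjusted p. Some further genes were chosen after their values were seen. Simulated counts gave every gene the same spread setting and changed few genes, all above a minimum mean count. For SPM with GV in Ecto, over 18423 genes, 50 genes were planted at each size. There edgeR found 96% of those with a log2 change of 1 and 90% of those with -1, with 10 false calls. For the GV response in Ecto against Endo over 19936 genes it found 86% and 78%, with 8 false calls. Changes under 1, the size of most member calls, were not planted, so these shares do not apply to them.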

Additional observations from a re-analysis of the deposited data

Results flagged for a closer look

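Between lines, the test of the difference in response passed for 23 members in Ecto against Endo, 26 in Ecto against VK2 and 13 in Endo against VK2 after GV alone. For PUT with GV the same tests passed for 26, 21 and 16 members, and for SPM with GV for 19, 15 and 18. Of all genes tested, 28%, 27.5% and 25.8% differed in those comparisons after GV alone. The shares were 24.8%, 35% and 22.4% for PUT with GV and 25.8%, 31.6% and 24.6% for SPM with GV.

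Between exposed and unexposed cells, the PUT effect differed for 20 members in Ecto, 24 in Endo and 26 in VK2, and the SPM effect for 15, 15 and 29. The SPD effect differed for 4 members in Ecto and 5 in Endo. Of all genes, 14.4% were higher and 12% lower for PUT in Ecto, 14.9% and 19.9% in Endo and 9.82% and 17.8% in VK2. The SPM shares were 19% and 17.3% in Ecto, 14.1% and 10.2% in Endo and 17% and 21.9% in VK2. The SPD shares were 1.54% and 1.59% in Ecto and 1.14% and 2.31% in Endo. No explanation of these differences was tested.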

How the results depend on the processing

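Of 415 member calls against NT, all 415 passed under the replicate block, 411 with RLE size factors, 409 with DESeq2, 412 with pseudogenes added, 387 without the filter on low counts and 378 with library totals alone. With 1 replicate number left out, 92, 70 and 38 no longer passed, for numbers 1, 2 and 3. With library totals alone, PUT with GV in VK2 changed sign for P4HA2 (0.0248), GPI (0.0026), PGK1 (0.0032) and PKM (0.0511), and the median of all genes was 0.12 for GV alone and 0.11 for PUT without GV in Ecto. The cause was not tested.

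The count for the SPM response in Ecto against VK2 was 23 with library totals and 23 without the filter. SPD without GV gave 4 in Ecto without the filter and 4 with DESeq2, 1 in Endo with DESeq2 and 1 in VK2 with DESeq2. SPD by GV gave 2 (library totals) and 7 (DESeq2) in Ecto, 1 and 9 in Endo, and 1 in VK2 without the filter. With the replicate block, SPD without GV gave 1 in Endo, SPD by GV 12 in Endo and 1 in VK2, SPD with GV 19 in Endo, and SPM by GV 23 in Endo. Same-numbered libraries had a median r of 0.0154, 0.0267 and 0.0184 in Ecto, Endo and VK2 (highest 0.0993, 0.136 and 0.0936), and 7 of 84 pairs in Endo and none of 84 in the other lines passed 0.1. Nothing in the labels gives the numbers a shared source and not every pair passed 0.1, so the block was not taken as a pairing, although 16, 21 and 18 of 24 libraries correlated best with their own number, a hint that numbers share some deviation. With the block, 15 members in Endo rose with PUT alone and fell with PUT and GV.

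Leaving out replicates moved these counts: GV response in Endo against VK2, 8 to 9; PUT response, 17 to 24 in Ecto against Endo and 9 to 15 in Endo against VK2; SPM response in Endo against VK2, 11 to 12. SPD with GV gave 2 to 12 in Ecto, 2 to 16 in Endo and 1 to 9 in VK2, and SPD without GV 0 to 3 in Ecto. SPM without GV gave 8 to 18 in Ecto and 11 to 18 in Endo. SPD by GV gave 0 to 7, 0 to 8 and 0 to 1 in Ecto, Endo and VK2, and SPM by GV 9 to 16 in Ecto. Depth limits EGLN3 and SLC2A3 in Endo, which had few counts per library.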
